A study of Rattus norvegicus with 4 samples.

Results

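Integrins are the receptors by which cells hold on to the matrix around them, and focal adhesions are the protein plaques that join the integrins to the actin cytoskeleton. The 42 genes described here are those of the deposited table whose symbol is that of a numbered or V alpha subunit, or of a numbered beta subunit, of the integrins, together with 21 named genes of the adhesion plaque, out of 32623 gene identifiers in all. They comprise 13 alpha subunits, 8 beta subunits and 21 plaque genes and were picked by name, with earlier results of these data known. Messenger RNA was sequenced from rat tendon stem/progenitor cells (TSPCs), matrix-making progenitors cultured from tendon. There were 2 libraries of cells given DMSO, the solvent, called control below, and 2 of cells given U0126, which blocks the MEK kinases that activate ERK. The sources used here do not give strain, age, dose, exposure time or the number of animals. The labels call the libraries biological replicates without naming cultures or animals, so p-values measure the spread between these libraries, which may be technical. The comparison asks how transcripts for matrix attachment differ when ERK signalling is inhibited.

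An integrin is a dimer of an alpha and a beta subunit, and the alpha subunit largely sets the ligand. Itga1, Itga2, Itga10 and Itga11 make collagen receptors with Itgb1, Itga3, Itga6 and Itga7 make laminin receptors, and Itga5, Itga8 and Itgav make receptors for the RGD motif of fibronectin and related proteins. Talins and kindlins bind the beta tail and switch the receptor on, focal adhesion kinase and paxillin assemble a signalling layer, the ILK-PINCH-parvin complex bridges to actin, and vinculin, zyxin and tensins take up force. In tendon these receptors hold the cells to aligned collagen fibres and carry load into the cell.

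Total counts were between 36888913 and 42785190 per library. The share of counts from mitochondrially encoded genes was 3.48% and 2.98% in the controls and 5.64% and 4.82% with U0126, and its part in the results below was not tested. Col1a1, at 20526 to 23943 CPM (counts scaled to the library size, with TMM factors), and Scx, the tendon lineage factor, were present in every library. Scx rose from 12.2 and 11.8 CPM in the controls to 20.5 and 20.4 CPM with U0126 (edgeR adjusted p = 0.00559). Of 12 tested tendon progenitor markers, 4 rose (Scx, Dcn, Nt5e and Pdgfrb) and 2 fell (Thy1 and Tnc). That is 33.3% higher and 16.7% lower, against 8.41% and 11.5% of all genes tested. The part of these changes in the integrin results was not tested. Tnmd, which marks differentiated tenocytes, reached at most 0.115 CPM. In bulk RNA, fewer cells that express a gene and less of its RNA per cell cannot be told apart.

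With U0126, 18 of the 37 tested members fell, none rose and 19 did not pass (quasi-likelihood test of edgeR, p adjusted by Benjamini-Hochberg over all 14023 genes tested, threshold 0.05). Over all genes tested, 11.5% were lower and 8.41% higher. Of the members, 13 fell by at least 1.5-fold, against 8.54% of all genes, and they include the integrins Itga3, Itga4, Itga5, Itga6, Itga7, Itga8 and Itgb1. The count of 0 risers goes with 1 member, Tln2, higher at an unadjusted p under 0.05, and with 0 risers by DESeq2 and by limma-voom. The median log2 fold change was -0.36 over the tested members and 0.02 over all genes. By sign alone, 28 members were below 0 and 9 above. The libraries of the groups did not overlap for 31 tested members, including all 18 that fell. That was also so for 62.8% of all genes, and 13 of these 31 did not pass the test. The other 5 members, Itga2b, Itgb2, Itgb6, Itgb7 and Fermt1, were below the filter on low counts. Of those tested, only Itga4 had fewer than 10 counts in every library of a group and passed the filter through its controls.

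In 13 of the 18 members that fell, the second U0126 library lay above the first, and in 12 of the 18 the second control lay above the first. Without control replicate 1, 11 members fell, and without control replicate 2, 8 did, while over all genes the share called lower was then 4.20% and 4.19%. Without U0126 replicate 1, the median log2 fold change was -0.43 over the tested members and 0.0009 over all genes. Leaving out U0126 replicate 2 gave medians of -0.52 and 0.004. A set of 8 members kept its call in every alternative in which it was tested: Itga3, Itga4, Itga5, Itga6, Itga8, Itgb1, Fermt2 and Pxn. Itga4 was tested in 11 of the 12 alternatives. How many of all genes called kept their call in this way is not given here, so the 8 have no background to compare with.

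**Figure D1:**
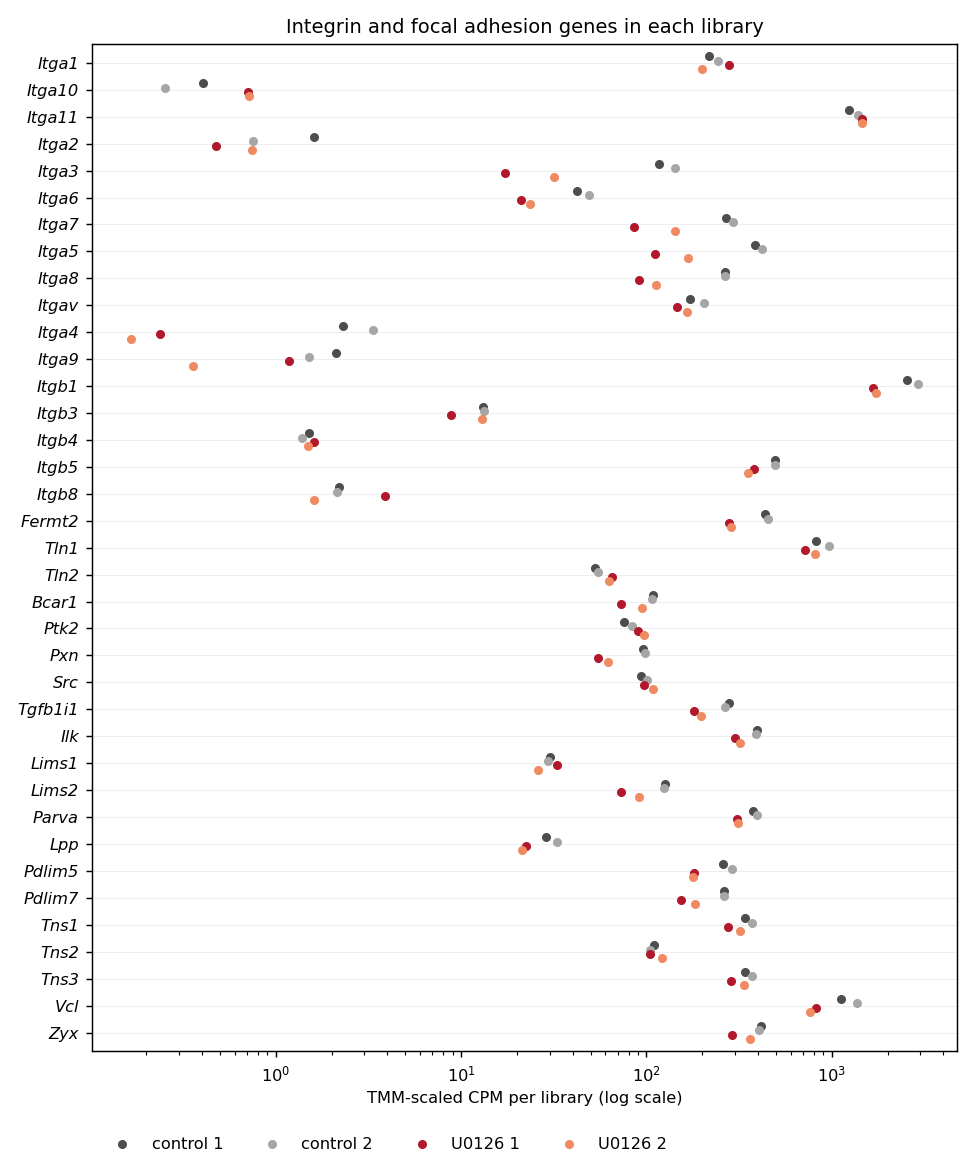
TMM-scaled CPM (x axis, log scale) of the 37 tested members in each of the 4 libraries, with 1 point per library. For Itga3, Itga5, Itga8 and Itgb1 both U0126 points lie to the left of both control points, while the points of Itga1 and Src interleave.

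Promoter windows show what stands upstream of genes that moved together and of a gene that did not pass. RefSeq windows on build GRCr8, from 250 bases before to 50 bases after a start site, were matched for 32 of the 42 members, 13 of them among those that fell. Letters of motifs linked to ERK, SRF and YAP signalling were searched on both strands: the CArG box of SRF by its name, TGANTCA (AP-1), GGAATG (TEAD) and CCGGAA (ETS). Capitals mark the matches. The windows shown are those of Itga3, Itgb1 and Vcl, which fell, and of Itga11, the most abundant alpha subunit, which did not pass. They do not stand for the rest. The fallen genes shown each hold a GGAATG, while Itga5, Itga8, Itgb5, Pxn, Tgfb1i1, Pdlim5 and Pdlim7 also fell and hold no match. Itga10, Itgb8 and Zyx did not pass and do have matches. Coordinates are those of GRCr8 and do not apply to the rn6 positions given for the data.
Itga3 (chr10:80518852-80519151, minus strand): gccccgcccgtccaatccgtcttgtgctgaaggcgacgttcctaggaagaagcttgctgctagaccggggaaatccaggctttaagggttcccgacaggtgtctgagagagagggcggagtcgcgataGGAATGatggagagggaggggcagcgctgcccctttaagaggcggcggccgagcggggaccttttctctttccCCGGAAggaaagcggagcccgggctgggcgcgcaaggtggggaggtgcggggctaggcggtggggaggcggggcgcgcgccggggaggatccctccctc
Itgb1 (chr19:73602027-73602326, plus strand): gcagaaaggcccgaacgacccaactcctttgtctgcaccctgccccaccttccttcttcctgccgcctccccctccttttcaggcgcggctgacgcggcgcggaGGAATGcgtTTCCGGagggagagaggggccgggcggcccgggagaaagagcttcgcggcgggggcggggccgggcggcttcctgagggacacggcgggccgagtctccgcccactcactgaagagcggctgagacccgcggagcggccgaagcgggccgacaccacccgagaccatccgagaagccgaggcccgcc
Vcl (chr15:3404751-3405050, minus strand): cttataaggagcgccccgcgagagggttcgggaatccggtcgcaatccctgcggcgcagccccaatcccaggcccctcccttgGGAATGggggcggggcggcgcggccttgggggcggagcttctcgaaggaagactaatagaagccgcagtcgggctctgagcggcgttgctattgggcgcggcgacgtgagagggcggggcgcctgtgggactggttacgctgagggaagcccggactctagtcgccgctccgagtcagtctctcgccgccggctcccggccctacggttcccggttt
Itga11 (chr8:72041182-72041481, plus strand): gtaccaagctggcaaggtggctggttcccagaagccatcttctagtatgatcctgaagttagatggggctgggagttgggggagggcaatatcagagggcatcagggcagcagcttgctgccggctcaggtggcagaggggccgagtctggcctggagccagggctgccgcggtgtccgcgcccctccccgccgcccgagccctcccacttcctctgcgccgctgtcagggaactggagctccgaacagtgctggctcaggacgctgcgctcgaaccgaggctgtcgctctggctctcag

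In the Itga3 window the GGAATG begins 122 bases, and the CCGGAA 49 bases, before the start site. In the Itgb1 window the GGAATG begins at 146 bases before the start and an ETS match on the other strand at 137 bases before it. The Vcl window holds a GGAATG that begins 167 bases before the start, and the Itga11 window holds none of the motifs. GGAATG was found for 9 of the 32 members (28.1%) and for 15% of all 27457 genes with a window. CCGGAA was found for 7 members (21.9%) and for 16.5% of all genes. Among the 13 members that fell, 5 had GGAATG and 4 had CCGGAA. Of the 19 other members with a window, 4 had GGAATG and 3 had CCGGAA. A full CArG box was in 1 window, that of Itgb6 (CCTTATAAGG), against 1.77% of genes, and TGANTCA in none, against 8.04%. The Vcl window opens with cttataagg, which is the Itgb6 box without its first base. The base before the window was not searched, so whether Vcl has the full box was not tested. A match is a description of letters and shows no binding.

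None of the 4 collagen-binding alpha subunits passed the test, and by sign 3 were above 0. Itga11, the main collagen receptor chain of fibroblasts (chromosome 8, 67615635 to 67683973, rn6), had 1244 and 1381 CPM in the controls and 1448 and 1451 CPM with U0126. Its U0126 values were slightly above both controls (log2 fold change 0.14 ± 0.09 SE, edgeR adjusted p = 0.335). Itga1, a receptor chain with a preference for basement membrane collagen, lay at 217 to 242 CPM in the controls and at 199.6 and 278 CPM with U0126, so its U0126 libraries lay on either side of the controls. The reads of Itga1 cannot be told apart from those of Pelo, which lies inside it on the same strand and had 6996 counts against 36917. Itga2, a collagen receptor of epithelia and platelets, and Itga10, the cartilage form, were both under 2 CPM. Itga2 had a log2 fold change of -0.95 ± 0.51 and Itga10 of 1.12 ± 0.50, and neither passed (edgeR adjusted p = 0.243 and 0.167).

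All 3 laminin-binding alpha subunits fell. Itga3 (chromosome 10, 82855613 to 82887497, rn6), which pairs with Itgb1 to bind the laminins of basement membranes, had 117 and 143 CPM in the controls and 17.2 and 31.7 CPM with U0126. The change was 5.31-fold (log2 fold change -2.41 ± 0.27 SE, edgeR adjusted p = 0.00137), the largest among members above 10 CPM in the controls. Itga7, the laminin receptor chain best known from muscle (chromosome 7, 3355116 to 3384675, rn6), went from 270.1 and 293 CPM to 85.3 and 143 CPM. It fell 2.47-fold (edgeR adjusted p = 0.00741), and its U0126 libraries differed from each other by more than its controls did. Without control replicate 2 its adjusted p in edgeR rose to the threshold and the call was lost. Itga6, a laminin receptor chain of epithelial and stem cells, went from 42 and 49.1 CPM to 21 and 23.4 CPM, a 2.05-fold fall (edgeR adjusted p = 0.00176). The 3 genes lie on different chromosomes, and in each of them both U0126 libraries were below both controls.

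Most tested markers of muscle and mural cells moved in the same direction as Itga7. Of 5 tested skeletal muscle markers, 4 fell (80%, against 11.5% of all genes) and none rose. The summed level of the list was 203 and 225 CPM in the controls and 85.7 and 129.9 CPM with U0126. Most of it came from Acta1, at 189 and 214 CPM in the controls and 80.7 and 122 CPM with U0126. Pax7, which marks muscle stem cells, had no counts. Of 6 tested mural and smooth muscle markers, 4 fell (66.7%, against 11.5% of all genes) and 1, Notch3, rose (16.7%, against 8.41%). This list summed to 8556 and 8944 CPM in the controls and 4672 and 5553 CPM with U0126, most of it from Acta2. The part of such cells in the integrin results was not tested.

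Of the RGD-binding alpha subunits, Itga5 and Itga8 fell, Itgav did not pass and Itga2b was not tested. Itga5, the chain of the classical fibronectin receptor (chromosome 7, 144970444 to 144993652, rn6), had 386 and 419 CPM in the controls and 111 and 167 CPM with U0126. It fell 2.90-fold (log2 fold change -1.54 ± 0.18 SE, edgeR adjusted p = 0.00191). Itga8, a receptor chain of mesenchyme and smooth muscle that binds nephronectin (chromosome 17, 79321900 to 79676499, rn6), went from 267 and 266 CPM to 90.7 and 113 CPM. This 2.62-fold fall had the smallest adjusted p of the members (log2 fold change -1.39 ± 0.12, edgeR adjusted p = 5.02e-04). For both genes the U0126 libraries lay far below the controls, by more than the spread within either group. Itgav, which pairs with Itgb1, Itgb3, Itgb5, Itgb6 or Itgb8 and can activate latent TGF-beta, was at 172 and 205 CPM in the controls and 147 and 165 CPM with U0126. Its groups did not overlap, but the difference did not pass (log2 fold change -0.28 ± 0.12, edgeR adjusted p = 0.146), except without U0126 replicate 2 (0.0361). Itga2b, the platelet chain, had at most 16 counts in a library.

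Itga4 and Itga9, which bind VCAM1, tenascin C and osteopontin among other ligands, were rare. Itga4 (chromosome 3, 66193059 to 66263960, rn6) had 2.32 and 3.35 CPM in the controls and 0.237 and 0.166 CPM with U0126, or 92 and 146 counts against 9 and 6. Its fitted fall was 13.9-fold (log2 fold change -3.79 ± 0.42 SE, edgeR adjusted p = 0.00142), the largest of all members in a gene of a few counts. Itga9 went from 2.12 and 1.52 CPM to 1.19 and 0.359 CPM and did not pass (edgeR adjusted p = 0.162). Its U0126 libraries lay apart, and with U0126 replicate 1 left out the fitted log2 change was -2.32 instead of -1.22 (edgeR adjusted p = 0.0106). Itga4 is also known from leukocytes. Of 8 leukocyte markers, Ptprc, Aif1 and Cd3e had no counts in any library, and the list summed to 15.5 and 15.4 CPM in the controls and 12.4 and 11.2 CPM with U0126, most of it from Cd14. All 4 tested markers had a log2 fold change below 0 and none passed. At the level of Itga4 itself, Lyz2 went from 1.69 and 2.34 CPM to 0.949 and 0 CPM, Cd68 from 0.706 and 0.391 to 0.264 and 0.249 CPM, and Spi1 from 10 and 16 counts to 0 and 0. The part of leukocytes in the Itga4 result was not tested.

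Among the beta subunits, Itgb1 and Itgb5 fell, 3 did not pass and 3 were not tested. Itgb1, the partner of most alpha chains named above (chromosome 19, 61677542 to 61725535, rn6), had 2542 and 2918 CPM in the controls and 1673 and 1733 CPM with U0126. It fell 1.60-fold (log2 fold change -0.68 ± 0.10 SE, edgeR adjusted p = 0.00449), and both U0126 libraries lay below both controls. Itgb5, a partner of Itgav that binds vitronectin, went from 495 and 491 CPM to 378 and 352 CPM, a 1.35-fold fall (edgeR adjusted p = 0.0153). With control replicate 1 or 2 left out, Itgb5 no longer passed (edgeR adjusted p = 0.144 and 0.140). Itgb3, the other vitronectin receptor chain and a partner of Itgav, had 13.2 and 13.3 CPM in the controls and 8.78 and 12.9 CPM with U0126. The second U0126 library was thus close to the controls, and Itgb3 did not pass (edgeR adjusted p = 0.348), except without that library (0.0116).

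Itgb8, the chain that with Itgav activates TGF-beta, was at 2.19 and 2.14 CPM in the controls and split to 3.90 and 1.60 CPM with U0126. Its sign therefore turned with the U0126 library left out. Itgb4, the hemidesmosome chain, was near 1.5 CPM in all libraries, and Galk1, which overlaps it on the opposite strand, had 10138 counts against 235. Since the strand setting of the counting is not known, reads of these 2 genes cannot be told apart. Itgb2 and Itgb6, of leukocytes and epithelia, had at most 12 counts in a library. Itgb7, a lymphocyte chain, had 0 counts, which allows up to 0.0689 to 0.0829 CPM per library (3 counts, counting error only).

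**Figure D2:**
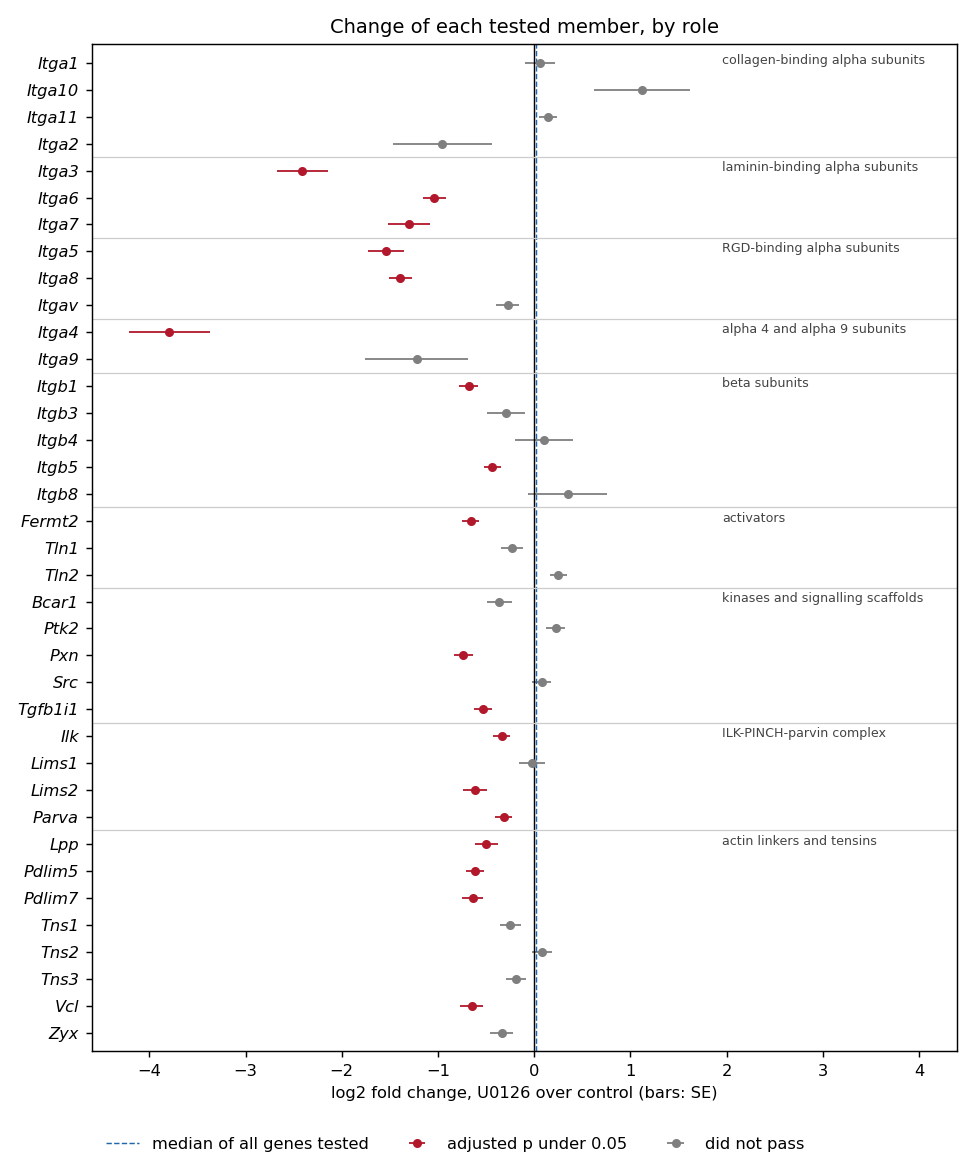
Log2 fold change of each tested member (points) with its standard error (bars), grouped by role. Red points passed the edgeR test, and the dashed line is the median of all genes tested, 0.02. All 3 laminin-binding chains lie to the left of -1, and none of the collagen-binding chains passed.

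Because long genes yield more reads, levels of different subunits were compared only in the deposited TPM, which is scaled by length. In the controls the most abundant alpha transcript was Itga11 at 513 ± 51.3 TPM (SD, n = 2), followed by Itga5 at 165 ± 14 TPM, Itga7 at 129 ± 10.5, Itgav at 108 ± 16.3, Itga1 at 99.3 ± 10.2, Itga8 at 81.9 ± 1.93, Itga3 at 48.1 ± 8.03 and Itga6 at 13.8 ± 1.88 TPM. The libraries of the neighbours Itgav and Itga1 overlapped. With U0126 the order became Itga11 at 543 ± 5.53, Itga1 at 99.0 ± 22.2, Itgav at 85.7 ± 7.68, Itga5 at 54.6 ± 16.1 and Itga7 at 50 ± 18.4 TPM. Itga5 was thus next after Itga11 in rank in the controls and below Itga1 and Itgav with U0126, though the U0126 libraries of Itga1 and Itgav overlap, as do those of Itga5 and Itga7. The other 5 alpha genes stayed under 2 TPM in every library.

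Summed alpha TPM was lower with U0126, and its make-up differed. The sum was 1081 and 1242 in the controls and 854 and 902 with U0126. Collagen-binding chains took 52.7% and 52.8% of that sum in the controls and 76.6% and 69.8% with U0126. Itga11 alone took 44.1% and 44.2%, then 63.1% and 60.6%. Laminin-binding chains went from 16.3% and 16.5% to 5.76% and 8.98%, and RGD-binding chains from 30.8% and 30.5% to 17.6% and 21.1%. The 3 shares did not overlap between the groups. An exact two-sided permutation test with 2 against 2 libraries cannot go below p = 0.333, the value each of them gave. Of the same alpha sum, Itgav took 8.96% and 9.65% in the controls and 9.40% and 10.1% with U0126, and Itga5 took 14.4% and 14.1%, then 5.06% and 7.31%.

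**Figure D3:**
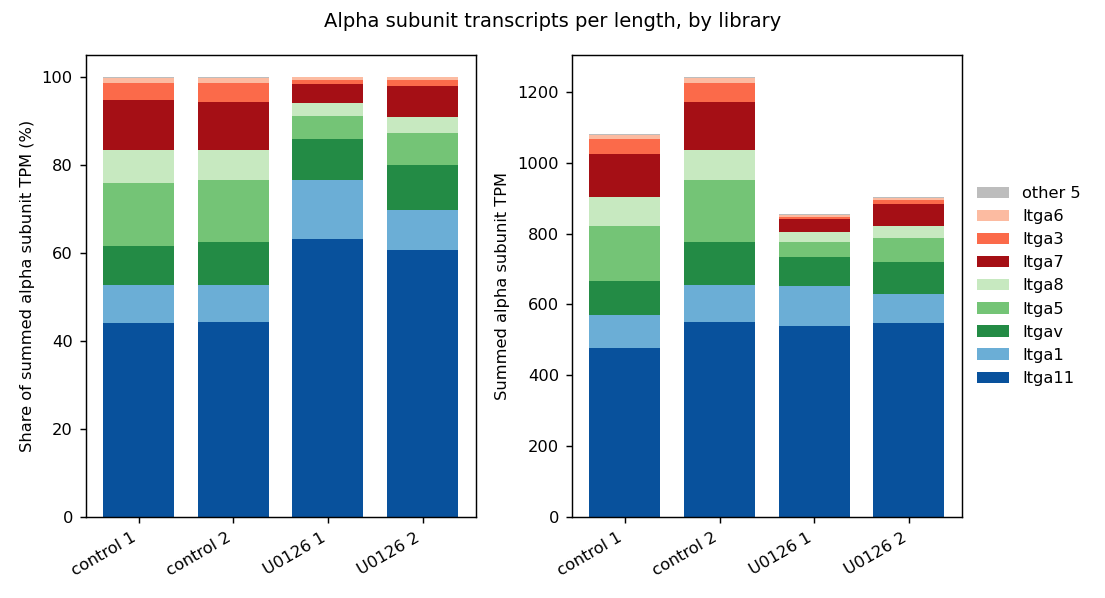
Alpha subunit transcripts in deposited TPM, stacked by gene for each library, as a share of their sum (left) and as levels (right). The dark blue Itga11 segment has a similar height in all 4 libraries on the right, and the red laminin-binding and light green RGD-binding segments are thinner in both U0126 libraries.

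The beta pool was dominated by Itgb1, at 83.7% and 85.6% of summed beta TPM in the controls and 81.5% and 82.9% with U0126. Itgb5 made up 15.3% and 13.5%, then 17.3% and 15.8%. Summed beta TPM was 1466 and 1708 in the controls and 962 and 992 with U0126. The ratio of beta to alpha TPM was 1.36 and 1.37 in the controls and 1.13 and 1.10 with U0126. Transcript ratios are not receptor ratios on the cell surface, which were not measured.

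Of the genes that switch integrins on, Fermt2 fell. Fermt2, kindlin-2, the kindlin of mesenchymal cells (chromosome 15, 19807808 to 19876408, rn6), had 438 and 455 CPM in the controls and 278 and 287 CPM with U0126. It fell 1.58-fold (log2 fold change -0.66 ± 0.09 SE, edgeR adjusted p = 0.00272), with little spread in either group. Tln1, the main talin, was at 822 and 971 CPM in the controls and 717 and 809.8 CPM with U0126. It did not pass (log2 fold change -0.23 ± 0.12, edgeR adjusted p = 0.211), and it overlaps Creb3 on the opposite strand, which had 31698 counts against 131389. Tln2, the second talin, was higher by sign at 52.9 and 54.8 against 65.1 and 62.9 CPM, and did not pass (edgeR adjusted p = 0.0968). Fermt1, the epithelial kindlin, had at most 4 counts in a library.

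In the signalling layer, the scaffolds Pxn and Tgfb1i1 fell and the kinases did not pass. Pxn, paxillin (chromosome 12, 46797954 to 46845080, rn6), went from 95.5 and 98.5 CPM to 54.5 and 62.1 CPM. It fell 1.66-fold (log2 fold change -0.73 ± 0.10 SE, edgeR adjusted p = 0.00316). Tgfb1i1, its relative Hic-5, fell 1.44-fold from 272 ± 11.2 to 188 ± 11.4 CPM (SD, n = 2, edgeR adjusted p = 0.00858), a call lost without either control. Ptk2, focal adhesion kinase, had 75.8 and 83.8 CPM in the controls and 89.9 and 96.6 CPM with U0126. Its groups did not overlap, with U0126 above, but it did not pass (log2 fold change 0.22 ± 0.10, edgeR adjusted p = 0.153). Src, the kinase that works with it, was at 93.9 and 100.3 CPM in the controls and 96.5 and 108 CPM with U0126, and its groups overlapped (log2 fold change 0.08 ± 0.10). Bcar1, the Src substrate p130Cas, was at 108 ± 1.30 and 83.6 ± 15.2 CPM (SD, n = 2) and passed only without U0126 replicate 2 (edgeR adjusted p = 0.00114, against 0.0970 with all 4 libraries).

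Of the 4 genes of the ILK-PINCH-parvin complex, Ilk, Parva and Lims2 fell and Lims1 did not pass. Ilk, the pseudokinase that binds the beta tail (chromosome 1, 170578889 to 170585189, rn6), had 393 and 391 CPM in the controls and 302 and 318 CPM with U0126. The 1.26-fold fall was small (log2 fold change -0.34 ± 0.09 SE, edgeR adjusted p = 0.0350), and Taf10, on the opposite strand across it, fell as well (log2 fold change -0.55). Parva, the alpha parvin that binds ILK and actin, fell 1.25-fold from 385 ± 14.6 to 309.6 ± 3.43 CPM (SD, n = 2, edgeR adjusted p = 0.0434). Both calls were lost without either control and in the fit with a replicate block (edgeR adjusted p = 0.0514 for Ilk and 0.0607 for Parva). Lims2, the adapter PINCH2, had 125 ± 0.638 CPM in the controls (SD, n = 2) and 72.5 and 91.0 CPM with U0126, a 1.53-fold fall (edgeR adjusted p = 0.0134) that was lost without either control (0.106 each). Its close relative Lims1, PINCH1, was at 29.9 ± 0.506 and 29.4 ± 4.89 CPM (SD, n = 2), with overlapping groups.

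Of the 8 actin linkers and tensins, Vcl, Pdlim5, Pdlim7 and Lpp fell and 4 did not pass. Vcl, vinculin, the talin and actin linker recruited under force (chromosome 15, 3455211 to 3544702, rn6), had 1119.7 and 1372 CPM in the controls and 824 and 763 CPM with U0126. It fell 1.57-fold (log2 fold change -0.65 ± 0.12 SE, edgeR adjusted p = 0.0102), and without control replicate 2, its higher control, the call was lost (0.0924). Pdlim5 and Pdlim7 carry a PDZ and LIM domains and sit on actin bundles. Pdlim5 went from 259.8 and 289.5 CPM to 180.2 and 177 CPM (1.54-fold, edgeR adjusted p = 0.00476), a call lost without control replicate 2 (0.0785). Pdlim7 went from 261 CPM in each control to 153 and 183 CPM (1.56-fold, edgeR adjusted p = 0.00765), lost without either control (0.0735 and 0.0753).

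Lpp, a LIM protein of the zyxin family, fell 1.41-fold from 30.9 ± 2.98 to 21.9 ± 0.804 CPM (SD, n = 2, edgeR adjusted p = 0.0266), also lost without either control. Its counts, 4203 in all, cannot be told apart from those of the placeholder gene LOC100365839 on the opposite strand, which had 12738 and a log2 fold change of 0.35. Zyx, zyxin, was at 414 and 406 CPM in the controls and 288 and 361 CPM with U0126, with no overlap. It did not pass (log2 fold change -0.34 ± 0.12 SE, edgeR adjusted p = 0.0958) but did with DESeq2 (adjusted p = 0.0393) and without U0126 replicate 2 (edgeR adjusted p = 0.00232). The tensins Tns1 and Tns3, which bind beta tails in mature adhesions, were at 354 ± 21.0 and 354 ± 21.9 CPM in the controls and 298 ± 33.0 and 311 ± 34.3 CPM with U0126 (SD, n = 2), and Tns2 at 107 ± 3.05 and 113 ± 12.6 CPM. None of the 3 passed with all libraries. Tns1 and Tns3 did without U0126 replicate 2, at log2 fold changes of -0.37 and -0.32 instead of -0.25 and -0.19.

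Per length, Ilk was the most abundant plaque transcript with U0126, at 309.6 ± 14.2 TPM (SD, n = 2), ahead of Vcl at 260.3 ± 11.8 TPM, while in the controls both were near 400 TPM (408 ± 9.10 and 427 ± 72.5) and did not differ beyond the spread of Vcl. Zyx followed at 289 ± 3.69 TPM in the controls and 219 ± 36.5 TPM with U0126. Ptk2 and Src were rarer, at 44.0 ± 4.14 and 50.1 ± 3.49 TPM in the controls and 49.3 ± 2.71 and 54.6 ± 9.85 TPM with U0126.

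Other adhesion genes outside the 42 were taken from 3 lists. Among 31 tested actin linker and LIM genes there were 18 that fell, 1 that rose and 12 that did not pass, with a median log2 fold change of -0.63. That is 58.1% lower and 3.23% higher, against 11.5% and 8.41% of all genes. Csrp1, a LIM protein on actin bundles, went from 795 and 799 CPM to 302 and 361 CPM (edgeR adjusted p = 5.22e-04). Sorbs2, which binds vinculin, fell 2.48-fold, Fhl3 1.98-fold and Ldb3, a PDZ-LIM protein of muscle Z-discs, 7.18-fold, to 0.817 and 1.52 CPM. The riser was Palld, palladin, an actin bundler, from 136 and 138 to 205 and 193 CPM (1.45-fold, edgeR adjusted p = 0.00649), a call lost without either control. Among the muscle and mural markers given above, 4 of 5 and 4 of 6 tested fell as well, and their part in this count was not tested.

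Among 34 tested rows of adaptor and signalling genes, with 2 for Grb2, there were 4 that rose, 5 that fell and 25 that did not pass, with a median of -0.06. These shares, 11.8% higher and 14.7% lower, lie near the 8.41% and 11.5% of all genes. Relatives of members stood among them. Parvb, the second parvin, fell 2.67-fold from 45.3 and 45.2 CPM to 14.2 and 19.7 CPM (edgeR adjusted p = 0.00146). Nedd9, of the Bcar1 family, rose 2.03-fold from 121 and 136 CPM to 281 and 242 CPM (edgeR adjusted p = 0.00139). Ptk2b, the relative of Ptk2 known as Pyk2, rose 1.29-fold from 25.1 and 26.3 CPM to 33.6 and 32.4 CPM (edgeR adjusted p = 0.0473), and the Src family kinase Fyn rose 1.57-fold. Kank1 and Cav1, caveolin 1, fell 2.21-fold and 2.00-fold, Apbb1ip, a talin recruiter, fell 1.68-fold, and Kank4 rose 1.42-fold. The count of risers was 2 with library totals alone, without the filter or with a replicate block, and 1 without either control.

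Of the integrin ligand genes, 4 of 27 tested rose (14.8%, against 8.41% of all genes) and 5 fell (18.5%, against 11.5%), the other 18 not passing, with a median of -0.12. The laminin chains Lama4, Lamb1 and Lamc1 fell 1.48-fold, 1.57-fold and 1.63-fold. The 4 other tested chains, Lama2, Lama3, Lama5 and Lamb2, did not pass, and Lamb2 was higher by sign, at 631 and 738 CPM in the controls and 713 and 838 CPM with U0126. Lamc1 went from 463 and 510 CPM to 256 and 340.3 CPM (edgeR adjusted p = 0.0148). Tnc, tenascin C, fell 2.91-fold. Fbln5, an elastic fibre protein with an RGD motif, rose 1.99-fold and Col3a1 1.48-fold, from 5072 and 5410.3 CPM to 7901 and 7623 CPM. Vcam1, a ligand of Itga4, rose 1.99-fold at 5.82 to 13.0 CPM, and Ctgf rose 1.27-fold. Fn1, fibronectin, the ligand of Itga5, was at 20147 and 21484 CPM in the controls and 18193 and 20131 CPM with U0126 and did not pass (edgeR adjusted p = 0.439). Without control replicate 1 or 2, 1 ligand gene fell, and 1 or 2 rose.

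**Figure D4:**
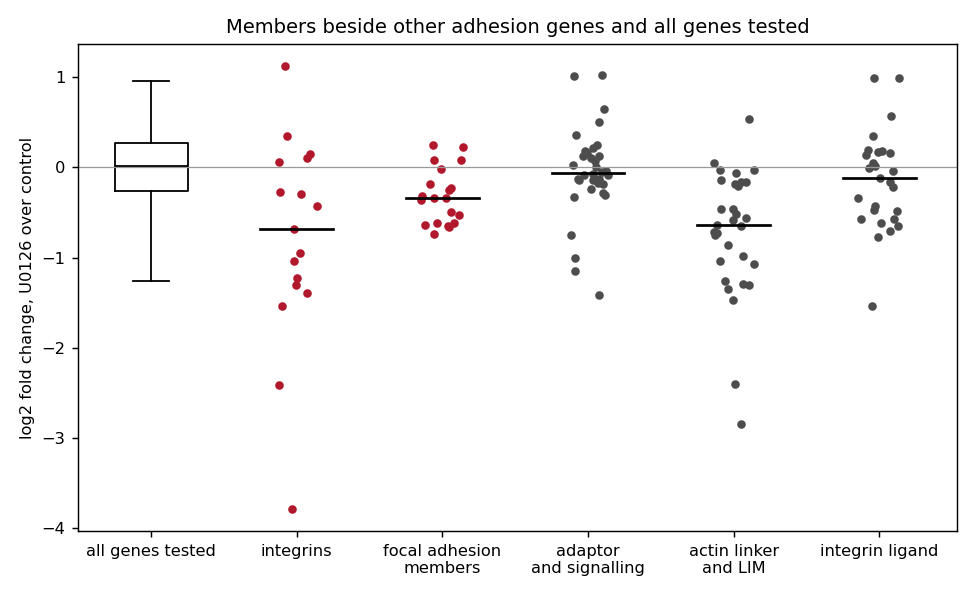
Log2 fold changes of the tested integrins and plaque members (red points) and of 3 other adhesion lists (grey points), with their medians as bars, beside a box of all genes tested (quartiles, whiskers at the 5th and 95th percentiles). The medians are -0.68 for the integrins, -0.34 for the plaque members and -0.63 for the actin linker and LIM genes, against 0.02 for all genes.

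The leukocyte integrins Itgax and Itgae had at most 3.96 CPM and did not pass, Itgal and Itgad had at most 16 counts, and no value was analysed here for Itgam. Of 6 endothelial markers in the table, Cdh5, Emcn and Cldn5 had no counts, and the sum was at most 0.791 CPM. Epcam, Cdh1, Krt5, Krt14 and Cldn4 of the epithelial list had none either, while Krt8 had at most 3.56 CPM. Krt18 had 0 counts in each control and 10 in each U0126 library (0.264 and 0.276 CPM). It passed the filter on low counts only through the U0126 libraries, where it is high. Platelet markers Ppbp and Gp6 had no counts, and the list's sum of 86.5 to 131 CPM came from a row named Gp1bb, where a second row of that name had at most 1.33 CPM. Of the Schwann markers, S100b rose from 12.7 and 7.17 CPM in the controls to 41.0 and 24.6 CPM with U0126 (edgeR adjusted p = 0.0105), and Sox10 had no counts. The part of Schwann-lineage cells in the integrin results was not tested.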

How the data were processed

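RNA-seq gave 4 libraries, 2 control and 2 U0126. Each gene has, per the file headers, raw counts, TPM and FPKM in every library. The counts were deposited as whole numbers, not normalized. By their header names, the authors' TPM and FPKM are scaled by gene length and depth. The submitters' processing notes give rn6 as the build. The aligner, counter, strand setting and annotation are not stated there or in the labels. Each column was assigned by its name, and 0 were left over.

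Counts passing edgeR's filterByExpr (minimum count 10, minimum total 15) were TMM-scaled and tested with glmQLFit and glmQLFTest (R 4.3.3, edgeR 4.0.16, prior count 0.125), two-sided, adjusted over all genes tested. The standard error is the absolute log2 fold change over the square root of F. Alternatives used limma 3.58.1, DESeq2 1.42.0, other scalings and filters, a replicate block, and leaving out each library. The deposited TPM gave the subunit shares. FPKM gave the same shares, because within a library both units differ only by a constant factor, and so is no check on them. The procedure was tested on simulated data. Values are given per library for members past the threshold that changed at least 1.5-fold and for 14 genes fixed by name. Up to 4 genes per list and direction with the smallest adjusted p are named besides, as are Fn1, other laminin chains and single markers chosen after their values were seen. The members, lists and roles were chosen with earlier results of these data known. A marker gene is not reported here. Depth is the total count, and floors cover counting error only.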

Additional observations from a re-analysis of the deposited data

How the results depend on the processing

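With RLE or upper quartile factors, library totals alone, limma-voom or no filter, 18 members fell and 0 rose. Over all genes these settings called 8.37% to 13.2% lower and 5.81% to 8.72% higher. The stricter filter gave 17 of 33 tested members lower, DESeq2 19 of 39 and the replicate block 16 of 37. The shares of all genes called lower were 11.9%, 10.7% and 10.1% in these settings. The replicate numbers share no stated source, and the deviations of same-numbered libraries were uncorrelated (r = -0.0315 across genes). Leaving out 1 library gave 8 to 24 members lower and 0 to 2 higher, and over all genes 604 to 2506 lower and 295 to 2138 higher. These fits have 1 residual degree of freedom and assume that a lone library varies like the other group. The same fits gave 3 to 8 adaptor genes lower and 1 to 5 higher, 11 to 22 actin linker genes lower and 0 to 1 higher, and 1 to 10 ligand genes lower and 1 to 4 higher. Risen adaptor genes were 2 with library totals alone, 2 with no filter and 2 with the replicate block, against 4. None of the 18 members that fell changed sign in an alternative, and 10 lost their call in at least 1 of them. The sign turned for 5 members that had not passed. With 1 library left out, the log2 fold change ran from -0.20 to 0.27 for Itga1 (-0.019 without control replicate 1), from -0.43 to 0.84 for Itgb8, from -0.020 to 0.16 for Src, from -0.20 to 0.13 for Lims1 and from -0.050 to 0.19 for Tns2. The cause was not tested. The gain or loss in the collagen-binding, laminin-binding and RGD-binding shares, in percentage points, was 17.1 to 23.8, -10.6 to -7.42 and -13.0 to -9.49 with 1 library left out. Scaling moved the median of all genes by at most 0.05 on the log2 scale. Itga4 is limited by counts of 9 and 6 in the U0126 libraries.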

Other observations

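Genes that carry an integrin name but lie outside the 42 were looked at after their values were seen. Itgbl1, a secreted protein with repeats like those of integrin beta chains, was at 251 and 261 CPM in the controls and 708 and 509.8 CPM with U0126 (log2 fold change 1.25 ± 0.15 SE, edgeR adjusted p = 0.00219). Both U0126 libraries were above both controls. Itgb1bp2, melusin, a muscle protein that binds the beta 1 tail, went from 6.48 and 7.31 CPM to 1.08 and 1.49 CPM (log2 fold change -2.42 ± 0.24, edgeR adjusted p = 8.66e-04). Itgb1bp1, which competes with talin for that tail, was at 31.7 and 33 CPM in the controls and 32.6 and 28.5 CPM with U0126, with overlapping groups.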
